A study of Homo sapiens with 9 samples.

Results

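The 10 genes described here carry out or drive the synthesis, elongation and desaturation of fatty acids: the transcription factor gene SREBF1, the acetyl-CoA suppliers ACLY and ACSS2, the synthesis enzymes ACACA and FASN, the elongases ELOVL5 and ELOVL6, and the desaturases SCD, FADS1 and FADS2. They were taken by symbol from a list that was drawn up with earlier results of these data known, and the rule itself uses no measured value. They are 10 of the 58734 genes in the count table, and all 10 were among the 16686 genes with enough counts to be tested. Poly-A selected, stranded RNA libraries were made from HEK293T, a line from human embryonic kidney that expresses the large T antigen of SV40. All cells received 10 nM of a Silencer Select siRNA with Lipofectamine RNAiMAX for 36 h: a control siRNA, an siRNA against SIN3A or an siRNA against SIN3B, with 3 libraries in each of the 3 groups. SIN3A and SIN3B are related scaffold proteins that hold histone deacetylases in a repressor complex. The groups follow the sample titles, because the treatment text names the control siRNA for every sample. The labels give no siRNA sequence and do not say if replicates were transfected separately. The p-values rest on a spread between libraries that may be technical.

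In the cytosol, fatty acids are built from acetyl-CoA, which ACLY makes from citrate and ACSS2 from acetate. ACACA turns acetyl-CoA into malonyl-CoA, and FASN joins these units into the saturated fatty acid palmitate. ELOVL6 lengthens palmitate and other saturated and monounsaturated chains, SCD places a double bond in saturated chains, and FADS2, ELOVL5 and FADS1 act in turn on dietary precursors to make long polyunsaturated fatty acids. SREBF1 encodes a membrane-bound transcription factor that is released when cells need lipid and is known for driving most of these genes. Liver and fat are the tissues best known for this pathway, but proliferating cell lines also use it to make membranes.

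Total deposited counts were 22542798 to 27084884 in the 9 libraries, and the 10 genes held 516 to 23644 counts per library. In each library at least 98.0% of the nonzero counts were multiples of 4, for a reason no source gives, so the number of independent reads may be smaller than the counts and the counting error of a low gene such as ACSS2 larger. SIN3A itself stood at 145 ± 4.0 CPM in control and 47.2 ± 2.5 CPM in its own knockdown (SD, n = 3), a log2 difference of -1.62 ± 0.07 (standard error, edgeR adjusted p = 2.22e-11). CPM here are the counts scaled to a common library size with TMM factors, which correct for library composition. SIN3B stood at 96.1 ± 4.7 CPM in control and 55.1 ± 3.6 CPM in its own knockdown (-0.80 ± 0.09, edgeR adjusted p = 2.25e-06). Neither knockdown moved the other paralog past the test: SIN3B was at 0.01 in the SIN3A knockdown and SIN3A at -0.01 in the SIN3B knockdown. The 3 SIN3A knockdown libraries lay further apart than the others, with replicate 1 apart from the rest, and values without it are given where it matters. The 6 markers of HEK293T were all detected and summed to 1215 to 1341 CPM in control, 1020 to 1256 in the SIN3A knockdown and 908 to 971 in the SIN3B knockdown. VIM was the largest part of the sum, with means of 772.5, 811.3 and 668.3 CPM in control, SIN3A knockdown and SIN3B knockdown. In the same order NEFM was at 313.8, 181.4 and 176.5, NEFL at 103.3, 99.14 and 59.65, and INA at 72.32, 37.66 and 31.38. PAX2 (4.119, 2.822 and 3.705) and LHX1 (3.026, 3.886 and 3.331) were low. The part of these markers in the results below was not tested. Of the fat cell markers 3 of 7 had no count (FABP4, CIDEC and CIDEA) and of the liver markers 4 of 8 (APOB, TTR, SERPINA1 and FABP1), and the summed level of either list was at most 5.63 CPM in any library. In bulk RNA, fewer cells of a kind and less RNA per cell cannot be told apart.

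In the SIN3A knockdown, 2 of the 10 genes rose (ACLY and ELOVL6), 4 fell (SCD, ELOVL5, FADS2 and SREBF1) and 4 did not pass the test (quasi-likelihood test of edgeR, with p adjusted over every gene tested and a threshold of 0.05). Among all 16686 genes, 12.2% rose and 10.8% fell in that comparison. In the SIN3B knockdown, 7 of the 10 fell (FASN, ACACA, SCD, FADS1, FADS2, ACSS2 and SREBF1), ELOVL5 rose, and ACLY and ELOVL6 did not pass, against 12.0% of all genes rising and 11.6% falling. Set directly against each other, the SIN3A knockdown was above the SIN3B knockdown for 6 of the 10 and below it for 2 (ELOVL5 and FADS2), against 14.5% and 12.6% of all genes. The median log2 difference of the 10 genes was -0.16 in the SIN3A knockdown and -0.32 in the SIN3B knockdown, where the medians of all genes tested were -0.002 and -0.015. The first 2 comparisons share their control libraries. The scaling bears on the split over all genes in the SIN3A knockdown: 2029 rose and 1807 fell with TMM, and 1352 rose and 2313 fell with upper-quartile factors.

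**Figure D1:**
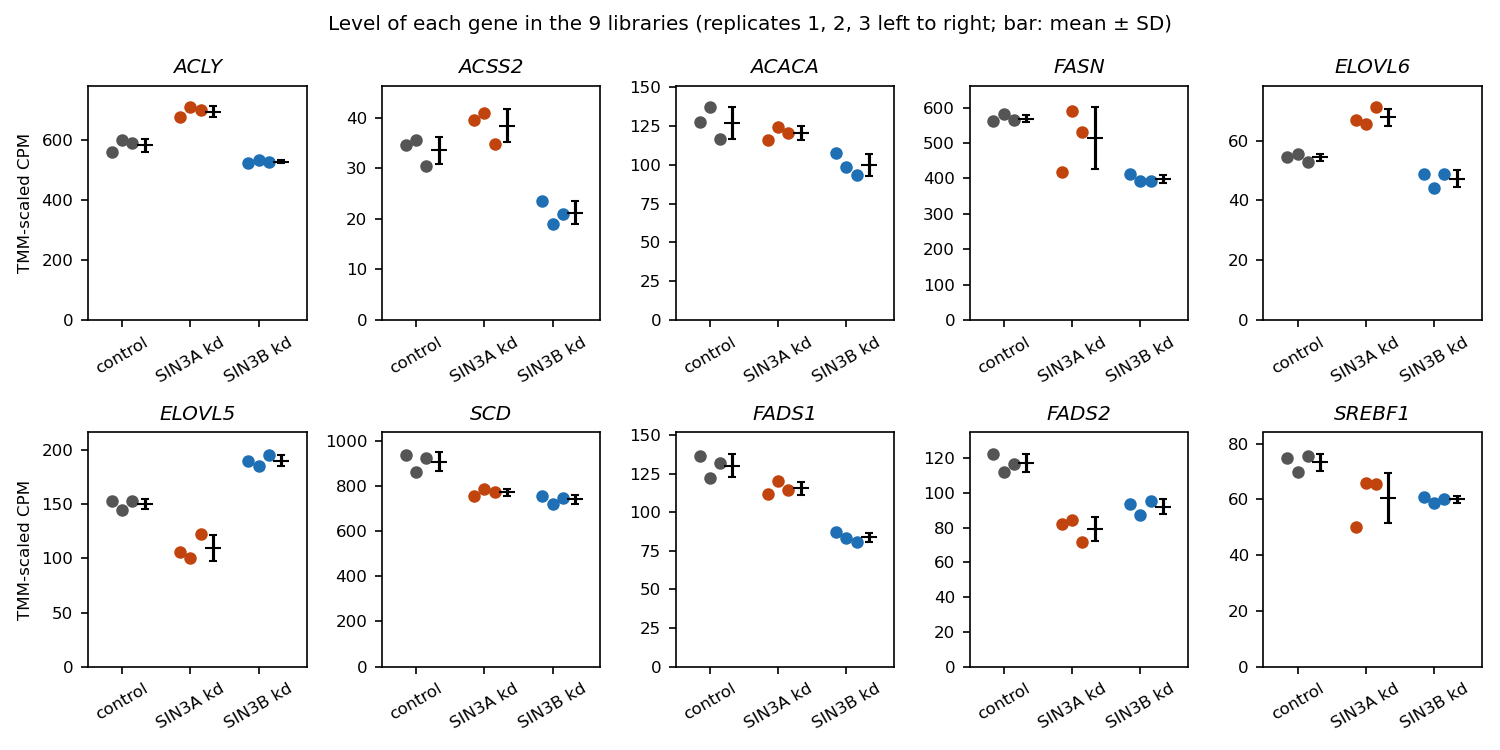
TMM-scaled CPM (vertical axis, from 0) of each of the 10 genes in the 9 libraries, with points for replicates 1 to 3 of control, SIN3A knockdown and SIN3B knockdown and a bar for the mean ± SD of each group. ELOVL5 lies below control in every SIN3A knockdown library and above control in every SIN3B knockdown library, and FASN replicate 1 of the SIN3A knockdown (418 CPM) lies apart from the other 2 (591 and 531 CPM).

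The 10 genes spanned a wide range of levels per length. Per kilobase of annotated exon, control levels ran from SCD at 170 ± 7.5 CPM per kb over ACLY (112 ± 4.0), FASN (60.8 ± 1.1) and ELOVL5 (39.4 ± 1.3) to FADS1 (12.7 ± 0.72), FADS2 (10.6 ± 0.46), ACACA (9.76 ± 0.79), SREBF1 (9.15 ± 0.38), ELOVL6 (7.45 ± 0.18) and ACSS2 (6.22 ± 0.51), each SD over 3 libraries. The libraries of FADS2 and ACACA overlapped, as did those of ACACA and SREBF1, and no other neighbours in this order did. On this length, the main desaturase of saturated chains and the citrate-splitting enzyme were the most abundant of the set, and the enzyme that uses acetate the least. The length counts all annotated exons of a gene (10230 bases for FADS1, 5385 for ACSS2) and can exceed that of any 1 transcript. The order may differ with transcript lengths, which was not tested.

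**Figure D2:**
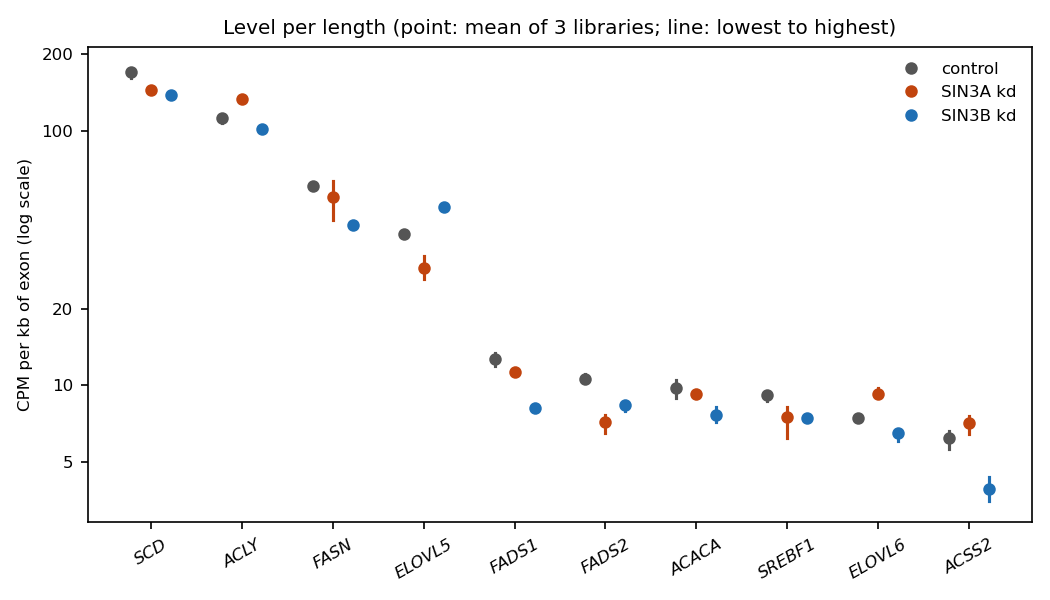
CPM per kilobase of exon (vertical axis, log scale) of the 10 genes, ordered by their control level, with the mean of 3 libraries as a point and the lowest to highest library as a line. Exon length counts all annotated exons of a gene, and the order and gaps depend on it. SCD is highest in control at 170 CPM per kb, ACSS2 is lowest at 6.22, and the gap between ELOVL5 (39.4) and FADS1 (12.7) is the widest between neighbours on this log scale.

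SREBF1 (ENSG00000072310, chromosome 17, 17810399 to 17837002, minus strand, GRCh38) encodes the membrane-bound transcription factor known for driving most of the enzyme genes. Its level was 75.0, 69.9 and 75.5 CPM in the control libraries, 50.0, 66.0 and 65.4 in the SIN3A knockdown, and 61.0, 58.8 and 60.3 in the SIN3B knockdown. Every knockdown library lay below every control library, and replicate 1 of the SIN3A knockdown lay lowest. SREBF1 fell by 0.28 on the log2 scale in the SIN3A knockdown (SE 0.10, edgeR adjusted p = 0.0405) and by 0.29 in the SIN3B knockdown (SE 0.10, edgeR adjusted p = 0.0316). Both calls depended on single libraries. Without SIN3A replicate 1 the first was -0.14 (edgeR adjusted p = 0.19), and without any 1 of the control libraries or any 1 of the SIN3B knockdown libraries it also missed the threshold (edgeR adjusted p from 0.0526 to 0.151). It missed it too in a fit of only the 6 libraries compared (edgeR adjusted p = 0.0711) and in limma on log2(FPKM + 1) (adjusted p = 0.0887). The second missed it without control replicate 1 or 3 or any 1 SIN3B knockdown library (edgeR adjusted p from 0.0555 to 0.114) and was -0.10 (edgeR adjusted p = 0.38) in a fit that corrects for GC content and for exon length by offsets. In limma on log2(FPKM + 1) its adjusted p was 0.0873. The first call, in the SIN3A knockdown, was lost with the GC and length offsets as well, and in 13 of the 21 alternatives in all. The knockdowns differed by 0.01 (95% interval -0.19 to 0.21), and the sign of that difference changed with the setting. SREBF1 shares 556 bases of its exons (6.92%) with RAI1 on the opposite strand. Whether counting used strand is not given in the sources used here, so reads from that stretch cannot be assigned with certainty.

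ACLY (ENSG00000131473, chromosome 17, 41866908 to 41930542, minus strand) makes acetyl-CoA from citrate that left the mitochondria. It was at 558, 598 and 591 CPM in control, at 675, 710 and 698 in the SIN3A knockdown, and at 523, 533 and 525 in the SIN3B knockdown. The 3 groups did not overlap, with the SIN3A knockdown highest and the SIN3B knockdown lowest. ACLY rose to 119% of control in the SIN3A knockdown (0.25 ± 0.06, edgeR adjusted p = 0.00517), and its difference from control in the SIN3B knockdown was -0.14 ± 0.06 (edgeR adjusted p = 0.10). That second value passed without SIN3A replicate 1 (-0.14, edgeR adjusted p = 0.013), with upper-quartile factors (-0.18, edgeR adjusted p = 0.0439), in a fit of 6 libraries (edgeR adjusted p = 0.00401) and in DESeq2 (adjusted p = 0.0222), but was -0.04 (edgeR adjusted p = 0.662) with the GC and length offsets. The knockdowns themselves differed by 0.40 ± 0.06 (edgeR adjusted p = 6.39e-05). SLC25A1, the mitochondrial citrate carrier that feeds ACLY, was at 137 ± 7.2 CPM in control, 182 ± 17.9 in the SIN3A knockdown and 129 ± 6.5 in the SIN3B knockdown (SD, n = 3), and rose by 0.41 ± 0.08 in the SIN3A knockdown (edgeR adjusted p = 0.000749).

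ACSS2 (ENSG00000131069, chromosome 20, 34872146 to 34927962, plus strand) makes acetyl-CoA from acetate. Its levels were 34.6, 35.5 and 30.4 CPM in control, 39.5, 41.0 and 34.8 in the SIN3A knockdown, and 23.5, 19.0 and 20.9 in the SIN3B knockdown. The SIN3B knockdown libraries lay below all others, and the SIN3A knockdown libraries overlapped control. ACSS2 fell to 63.2% of control in the SIN3B knockdown (-0.66 ± 0.11, edgeR adjusted p = 0.000255). In the SIN3A knockdown its difference was 0.20 ± 0.11 and was not called (edgeR adjusted p = 0.217). The direct difference between the knockdowns, 0.86 ± 0.11 (edgeR adjusted p = 1.01e-05), ran from 0.79 to 0.95 when 1 library was left out.

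ACACA (ENSG00000278540, chromosome 17, 37084988 to 37406818, minus strand) commits acetyl-CoA to fatty acid synthesis. It was at 128, 137 and 116 CPM in control, at 116, 124 and 121 in the SIN3A knockdown, and at 107, 98.8 and 93.6 in the SIN3B knockdown. The SIN3A knockdown overlapped control, and every SIN3B knockdown library lay below both other groups. ACACA fell to 78.7% of control in the SIN3B knockdown (-0.35 ± 0.08, edgeR adjusted p = 0.00257) and was at -0.08 ± 0.08 in the SIN3A knockdown (edgeR adjusted p = 0.514), a value between -0.15 and -0.02 over the alternatives. The knockdowns differed by 0.27 ± 0.08 (edgeR adjusted p = 0.013), a call that was lost without SIN3B replicate 2 (0.26, edgeR adjusted p = 0.0544) or replicate 3 (0.22, edgeR adjusted p = 0.0855) and in limma on log2(FPKM + 1) (0.26, adjusted p = 0.0516).

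FASN (ENSG00000169710, chromosome 17, 82078333 to 82098332, minus strand), the synthase that assembles palmitate, was the member whose SIN3A knockdown libraries disagreed most. Its levels were 562, 581 and 564 CPM in control, 418, 591 and 531 in the SIN3A knockdown, and 412, 393 and 392 in the SIN3B knockdown. All SIN3B knockdown libraries lay below every control library, while SIN3A knockdown replicate 1 lay near the SIN3B knockdown and replicates 2 and 3 near control. FASN fell to 70.1% of control in the SIN3B knockdown (-0.51 ± 0.09, edgeR adjusted p = 0.000322). With the GC and length offsets that value was -0.30, still called (edgeR adjusted p = 0.000551). In the SIN3A knockdown the difference was -0.15 ± 0.09 (95% interval -0.33 to 0.04, edgeR adjusted p = 0.254), and it depended on single libraries. Without replicate 1 it was -0.003 (edgeR adjusted p = 0.978), and without replicate 2 it was -0.26 and called (edgeR adjusted p = 0.0378). With the GC and length offsets it was -0.05 (edgeR adjusted p = 0.613). The knockdowns differed by 0.36 ± 0.09 (edgeR adjusted p = 0.00427).

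SCD (ENSG00000099194, chromosome 10, 100347124 to 100364834, plus strand) makes monounsaturated from saturated fatty acids. It was at 939, 864 and 926 CPM in control, at 756, 788 and 776 in the SIN3A knockdown, and at 757, 721 and 749 in the SIN3B knockdown. Both knockdowns lay below control without overlap and overlapped each other. SCD fell to 85.0% of control in the SIN3A knockdown (-0.23 ± 0.06, edgeR adjusted p = 0.0106) and to 81.6% in the SIN3B knockdown (-0.29 ± 0.06, edgeR adjusted p = 0.00196). The first call was lost without control replicate 1 (-0.21, edgeR adjusted p = 0.06) or control replicate 3 (-0.21, edgeR adjusted p = 0.0695). The direct difference was 0.06 with a 95% interval of -0.07 to 0.19 (edgeR adjusted p = 0.537). Its close relative SCD5, which was not one of the 10, was at 27.9 ± 2.2 CPM in control, 29.8 ± 2.5 in the SIN3A knockdown and 10.6 ± 1.7 in the SIN3B knockdown (SD, n = 3). SCD5 thus fell to 38.0% of control in the SIN3B knockdown (-1.39 ± 0.13, edgeR adjusted p = 3.25e-07), and the knockdowns differed by 1.49 ± 0.13 (edgeR adjusted p = 5.56e-08).

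FADS1 and FADS2 lie on opposite strands of chromosome 11 with overlapping annotated spans, FADS1 (ENSG00000149485) at 61799625 to 61829318 on the minus strand and FADS2 (ENSG00000134824) at 61792980 to 61867354 on the plus strand. FADS2 performs the first and FADS1 the later desaturation of polyunsaturated fatty acids. FADS1 was at 137, 122 and 132 CPM in control, 112, 120 and 114 in the SIN3A knockdown, and 86.9, 83.4 and 80.6 in the SIN3B knockdown. FADS2 was at 122, 112 and 117 CPM in control, 82.0, 84.6 and 71.5 in the SIN3A knockdown, and 93.4, 87.3 and 95.5 in the SIN3B knockdown. FADS1 was lowest in the SIN3B knockdown and FADS2 in the SIN3A knockdown, and no groups of either gene overlapped.

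FADS1 fell to 64.3% of control in the SIN3B knockdown (-0.64 ± 0.07, edgeR adjusted p = 2.98e-06). In the SIN3A knockdown it was at -0.17 ± 0.07 and was not called (edgeR adjusted p = 0.0859), although with upper-quartile factors it was (-0.24, edgeR adjusted p = 0.0202). With the GC and length offsets it was -0.10 (edgeR adjusted p = 0.272). FADS2 fell to 67.7% of control in the SIN3A knockdown (-0.56 ± 0.08, edgeR adjusted p = 4.41e-05). It fell to 78.5% in the SIN3B knockdown (-0.35 ± 0.08, edgeR adjusted p = 0.00267), and this call was lost with the GC and length offsets (-0.15, edgeR adjusted p = 0.208). The knockdowns differed by 0.46 ± 0.07 for FADS1 (edgeR adjusted p = 6.17e-05), with the SIN3A knockdown higher. For FADS2 they differed by -0.21 ± 0.08 (edgeR adjusted p = 0.0481), with the SIN3A knockdown lower, and this call was lost in 14 of 21 alternatives, among them each fit without 1 control library, without 1 SIN3B knockdown library or without SIN3A replicate 3 (-0.15, edgeR adjusted p = 0.176). The pair share 490 bases of exon on opposite strands, 4.79% of the exon bases of FADS1 and 4.44% of those of FADS2.

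ELOVL5 (ENSG00000012660, chromosome 6, 53267398 to 53349179, minus strand), the elongase of polyunsaturated chains, moved in opposite directions. It was at 153, 145 and 153 CPM in control, 106, 100.1 and 123 in the SIN3A knockdown, and 190, 186 and 196 in the SIN3B knockdown. No groups overlapped. ELOVL5 fell to 73.1% of control in the SIN3A knockdown (-0.45 ± 0.08, edgeR adjusted p = 0.000254) and rose to 127% in the SIN3B knockdown (0.34 ± 0.07, edgeR adjusted p = 0.00215). With the GC and length offsets the rise was 0.21, still called (edgeR adjusted p = 0.0206). The direct difference was -0.79 ± 0.08 (edgeR adjusted p = 1.65e-07) and ran from -0.88 to -0.73 when 1 library was left out.

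ELOVL6 (ENSG00000170522, chromosome 4, 110045846 to 110199199, minus strand), the elongase of palmitate, took the reverse order. Its levels were 54.5, 55.5 and 53.0 CPM in control, 66.7, 65.5 and 71.1 in the SIN3A knockdown, and 48.9, 44.0 and 48.9 in the SIN3B knockdown, again with no overlap. ELOVL6 rose to 125% of control in the SIN3A knockdown (0.32 ± 0.08, edgeR adjusted p = 0.00835). In the SIN3B knockdown it was at -0.20 ± 0.08 and was not called (edgeR adjusted p = 0.0905). It was called there with upper-quartile factors (-0.24, edgeR adjusted p = 0.0419), in a fit of 6 libraries (-0.20, edgeR adjusted p = 0.0426) and with the GC and length offsets (-0.37, edgeR adjusted p = 0.00137). The knockdowns differed by 0.52 ± 0.08 (edgeR adjusted p = 9e-05).

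**Figure D3:**
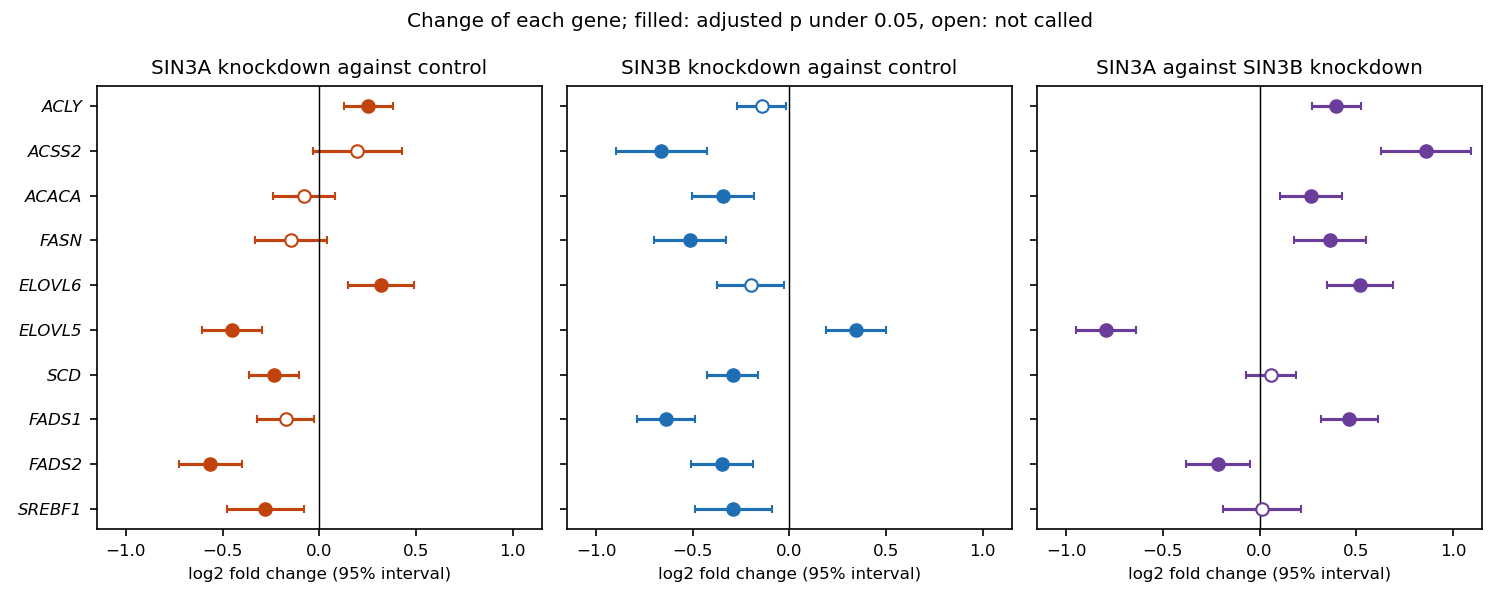
Log2 fold change (horizontal axis) with its 95% interval for each of the 10 genes in the 3 comparisons, filled where the edgeR adjusted p was under 0.05 and open where it was not. In the SIN3B knockdown 9 of the 10 points lie left of 0 and ELOVL5 lies right at 0.34, and in the direct comparison ACSS2 (0.86) and ELOVL5 (-0.79) lie furthest from 0 on either side.

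Ratios taken within a library do not depend on the scaling between libraries. A pair of ratios was chosen after the values were seen, so they are descriptions. Counts of FADS1 over FADS2 were 1.11, 1.09 and 1.12 in control, 1.36, 1.42 and 1.59 in the SIN3A knockdown, and 0.93, 0.95 and 0.84 in the SIN3B knockdown. Counts of ELOVL6 over ELOVL5 were 0.36, 0.38 and 0.35 in control, 0.63, 0.65 and 0.58 in the SIN3A knockdown, and 0.26, 0.24 and 0.25 in the SIN3B knockdown. For both pairs every SIN3A knockdown library lay above and every SIN3B knockdown library below every control library. The SIN3A knockdown thus held more of the late desaturase per early desaturase and more of the palmitate elongase per polyunsaturated elongase than control, and the SIN3B knockdown less of each.

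**Figure D4:**
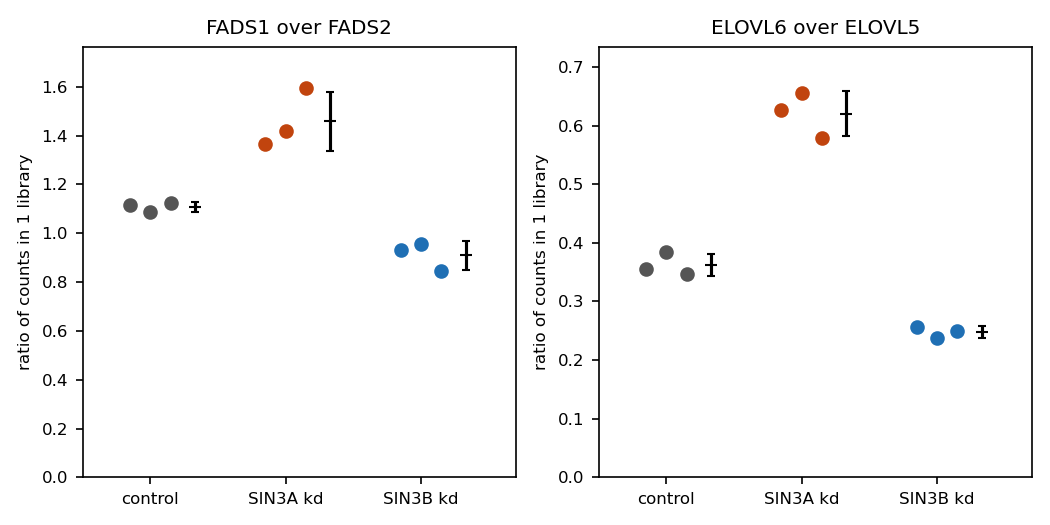
Ratio of counts within each library (vertical axis, from 0) for FADS1 over FADS2 and for ELOVL6 over ELOVL5, with points for the 3 libraries of each group and a bar for the mean ± SD. Means are 1.11, 1.46 and 0.91 for the desaturases and 0.36, 0.62 and 0.25 for the elongases in control, SIN3A knockdown and SIN3B knockdown, with no overlap of groups.

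Several of the genes moved with each other over the 9 libraries, as a description over libraries that fall into 3 groups and share their scaling. Of the 45 pairs among the 10 genes, 33 had a positive and 12 a negative Pearson correlation of log2 CPM. The highest were ACLY with ELOVL6 (0.95) and FASN with FADS1 (0.89), and the lowest were ELOVL5 with ACLY (-0.96), with ELOVL6 (-0.91) and with ACSS2 (-0.90). ELOVL5 was also the only member with a negative correlation (-0.51) with the mean profile of the 10, a mean to which it belongs. The genes outside the set closest to that mean profile, of 10365 compared, were HIP1 (r = 0.985), SULF2 (0.983), STEAP3 (0.979), LRP8 (0.977) and MOV10 (0.977). The log2 difference from control of each of these 5 was below 0 in both knockdowns and further below it in the SIN3B knockdown. That order follows from how the 5 were picked, by likeness to the mean profile over the same libraries, and is no separate result. HIP1, an endocytic adaptor, was at -0.27 and -0.89, and LRP8, a lipoprotein receptor, at -0.13 and -0.57.

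Promoter sequence was set beside these values because several of the genes are known SREBP targets, and nuclear factor Y, which binds CCAAT, and Sp1, which binds GC boxes, are known partners of SREBP at such promoters. RefSeq promoters (GRCh38.p14, 250 bases before the start) were found for 9 of the 10 genes, in 14 entries, with none for FASN. On either strand, CCAAT stood in a promoter of 5 of these 9 genes (ELOVL5, SCD, ACACA, ACLY and ACSS2), and in 32.0% of all 35116 promoters. GGGCGG stood in a promoter of 8 of the 9 (42.6% of all promoters), CACGTG in that of 1, ELOVL5 (6.34%), and TCACNCCAC in none (0.883%). A gene with several entries has more than 1 chance to hold a motif. The promoters below belong to SCD, which fell in both knockdowns, to ELOVL5, which moved in opposite directions, and to ACLY, which rose in the SIN3A knockdown. They run 5′ to 3′ on the strand of the gene, and capitals mark each copy of the motifs searched, on either strand.
SCD, chr10:100346983-100347232, plus strand: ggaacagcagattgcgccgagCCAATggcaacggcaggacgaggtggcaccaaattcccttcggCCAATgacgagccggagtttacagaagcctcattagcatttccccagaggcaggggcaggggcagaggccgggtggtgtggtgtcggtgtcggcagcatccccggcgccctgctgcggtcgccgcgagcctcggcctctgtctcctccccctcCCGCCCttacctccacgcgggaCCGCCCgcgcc
ELOVL5, chr6:53348951-53349200, minus strand: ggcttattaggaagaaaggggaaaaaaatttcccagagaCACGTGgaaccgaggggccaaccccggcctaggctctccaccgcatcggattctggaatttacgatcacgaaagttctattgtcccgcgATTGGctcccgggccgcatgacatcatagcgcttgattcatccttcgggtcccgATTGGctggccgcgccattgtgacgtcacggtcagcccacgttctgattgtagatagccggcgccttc
ACLY, chr17:41919023-41919272, minus strand: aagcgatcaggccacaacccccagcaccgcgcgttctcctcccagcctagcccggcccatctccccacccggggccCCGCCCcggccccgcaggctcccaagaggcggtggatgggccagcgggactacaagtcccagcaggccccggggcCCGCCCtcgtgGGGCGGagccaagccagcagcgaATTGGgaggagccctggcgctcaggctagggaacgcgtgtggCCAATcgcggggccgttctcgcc
SCD, ELOVL5 and ACLY each hold 2 CCAAT copies, although they moved in different directions. GGGCGG stands 2 times in SCD and 3 times in ACLY (4 times in the second entry of ACLY, not shown), and not in ELOVL5. A match is a description of the letters and not a site.

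Short sequences in the 3′ UTR were also read, because an siRNA can act on other transcripts that match its seed. The 7-base words GGTCTAA or AGGTCTA (SIN3A knockdown) and ACAGCCT or CAGCCTT (SIN3B knockdown) had been picked out from these same data as going with lower values, so their presence is no independent evidence. Of 13385 genes searched in GENCODE 29, 8.63% held the first kind, with a median log2 difference of -0.08 in the SIN3A knockdown against 0.03 for genes without. The second kind stood in 27.9%, with a median of -0.06 in the SIN3B knockdown against 0.01 without. Among the 10 genes the first kind stood in ELOVL5 and FADS1, 1 copy each. The second stood in ACACA and SCD (1 copy each) and in FADS1 and ELOVL6 (2 copies each). These windows of the 3′ UTRs (GRCh38, strand of the gene, 5′ to 3′) show them, with the words in capitals and 1 of the 2 copies of ELOVL6 left out.
ELOVL5, first kind, chr6:53268163-53268189: tggttgccagGGTCTAAatttggattg
FADS1, first kind, chr11:61801524-61801550: ttccctccagGGTCTAAagagaacaag
FADS1, second kind, chr11:61800777-61800802: ctccaacccACAGCCTTtgcttccag
FADS1, second kind, chr11:61800370-61800396: taggtttaaaACAGCCTgggtaggaaa
SCD, second kind, chr10:100363178-100363204: agcattccctACAGCCTagggcagaca
ACACA, second kind, chr17:37085084-37085109: gttcacaaaACAGCCTTcacttgtct
ELOVL6, second kind, chr4:110047403-110047429: ttctgatagtACAGCCTctactcagag
Of the 7 genes that fell in the SIN3B knockdown, 3 held a word of the second kind (ACACA, SCD and FADS1) and 4 held none (FASN, FADS2, ACSS2 and SREBF1). Of the 4 that fell in the SIN3A knockdown, ELOVL5 held a word of the first kind, and SCD, FADS2 and SREBF1 held none. Among the tested genes of the other lipid lists described below, 10 held a word of the first kind, of which 6 fell and 4 were not called in the SIN3A knockdown, against 16 that rose, 7 that fell and 63 not called of the 86 without. A word of the second kind stood in 30, of which 13 fell and 17 were not called in the SIN3B knockdown, against 12 that rose, 8 that fell and 46 not called of the 66 without. These counts are descriptions, because the words were picked for going with lower values in the same data. A longer 3′ UTR also has more chance to hold a word. Of the genes of those lists that the text names, CBR4, ELOVL2, AGPAT5, EHHADH and INSIG2 held a word of the first kind. SCD5, ELOVL2, ELOVL7, SREBF2, PCYT1A and PPARA held a word of the second kind, and SLC25A1, SCAP, INSIG1, HACD2 and ECI2 held neither. The words' part in the results was not tested.

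Other genes of lipid metabolism, from lists of 101 genes in all, were read beside the 10, with SDs over 3 libraries. Of all genes tested, 12.2% rose and 10.8% fell in the SIN3A knockdown, and 12.0% rose and 11.6% fell in the SIN3B knockdown. Several of the list counts given here and in the following paragraphs lie near these shares. Of 15 other synthesis genes tested, 3 rose and 1 fell in the SIN3A knockdown and 0 rose and 2 fell in the SIN3B knockdown, with list medians of 0.05 and -0.09. CBR4, a subunit of the mitochondrial synthesis pathway, fell from 32.9 ± 1.8 to 22.3 ± 2.3 CPM in the SIN3A knockdown (-0.56 ± 0.11, edgeR adjusted p = 0.00119). Of 10 other elongation and desaturation genes tested, 1 rose and 1 fell in the SIN3A knockdown and 3 rose and 3 fell in the SIN3B knockdown (medians 0.20 and -0.05). ELOVL2, which lengthens the products of ELOVL5, fell in both, to 62.1% of its control level of 40.2 ± 3.8 CPM (-0.69 ± 0.11, edgeR adjusted p = 0.000266) and to 67.1% (-0.57 ± 0.11, edgeR adjusted p = 0.00098). ELOVL7, an elongase of saturated chains, fell in the SIN3B knockdown from 13.9 ± 1.7 to 7.13 ± 1.0 CPM (-0.96 ± 0.16, edgeR adjusted p = 0.000245). HACD2 rose in the SIN3B knockdown from 52.8 ± 6.3 to 73.0 ± 3.9 CPM (0.47 ± 0.09, edgeR adjusted p = 0.00113).

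Among 23 genes of SREBP processing, its regulators and sterol targets, 2 rose and 3 fell in the SIN3A knockdown and 4 rose and 7 fell in the SIN3B knockdown (medians -0.01 and -0.08). SREBF2, the sterol-directed relative of SREBF1, was at 186, 177 and 166 CPM in control, 147, 173 and 159 in the SIN3A knockdown and 138, 138 and 137 in the SIN3B knockdown. It fell in the SIN3B knockdown (-0.36 ± 0.07, edgeR adjusted p = 0.00116), and was -0.20, still called, with the GC and length offsets (edgeR adjusted p = 0.0164). In the SIN3A knockdown it was at -0.15 ± 0.07 and not called (edgeR adjusted p = 0.158), but was called with upper-quartile factors (-0.21, edgeR adjusted p = 0.0391). That value was -0.07 both with the GC and length offsets (edgeR adjusted p = 0.43) and without SIN3A replicate 1 (edgeR adjusted p = 0.453). SCAP, which escorts SREBPs to the Golgi, was at 0.07 and -0.16 in the SIN3A and the SIN3B knockdown, and neither value was called, although the second was without SIN3A replicate 1 (edgeR adjusted p = 0.0341), with upper-quartile factors (0.0363) and in a fit of 6 libraries (0.00852). With the GC and length offsets it was 0.01. In the direct comparison SCAP was at 0.24 (edgeR adjusted p = 0.0114) and SREBF2 at 0.21 (edgeR adjusted p = 0.0341). Both calls were lost with the GC and length offsets (0.13 for each) and without SIN3A replicate 2 or SIN3B replicate 2. The SREBF2 call was also lost without SIN3B replicate 1 or 3, with upper-quartile factors, the replicate block, the 6 libraries and limma. INSIG1, which retains SREBPs in the endoplasmic reticulum, was at -0.20 (edgeR adjusted p = 0.0834) and -0.25 (edgeR adjusted p = 0.0299), and INSIG2 at -0.03 and 0.31, neither called. The first INSIG1 value was called without SIN3A replicate 1 (-0.24, edgeR adjusted p = 0.0215), without control replicate 2 (-0.27, edgeR adjusted p = 0.0392), with upper-quartile factors (edgeR adjusted p = 0.0221), without a low-count filter (0.0473), with counts divided by 4 (0.0493) and with the GC and length offsets plus the replicate block (0.0351). For INSIG1 the knockdowns differed by 0.05 (edgeR adjusted p = 0.704). The call in the SIN3B knockdown was lost without control replicate 1 or 3 or SIN3B replicate 2 or 3 (edgeR adjusted p from 0.0867 to 0.208).

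Of 23 genes of fatty acid activation and glycerolipid assembly, 4 rose and 5 fell in the SIN3A knockdown and 3 rose and 6 fell in the SIN3B knockdown (medians 0.03 and -0.04). AGPAT5, an acyltransferase of phosphatidic acid synthesis, stood apart by knockdown as ELOVL5 did, at 25.7 ± 1.7 CPM in control, 19.3 ± 2.0 in the SIN3A knockdown and 40.2 ± 1.3 in the SIN3B knockdown, a direct difference of -1.06 ± 0.11 (edgeR adjusted p = 4.41e-07). PCYT1A, of phosphatidylcholine synthesis, took the reverse order at 45.4 ± 1.8, 55.4 ± 3.1 and 30.6 ± 1.1 CPM (0.86 ± 0.09, edgeR adjusted p = 5.59e-07). Of 25 fatty acid oxidation genes, 6 rose and 3 fell in the SIN3A knockdown and 2 rose and 3 fell in the SIN3B knockdown (medians 0.07 and -0.04). EHHADH, a peroxisomal oxidation enzyme, fell in the SIN3A knockdown from 8.64 ± 1.3 to 3.80 ± 0.45 CPM (-1.18 ± 0.19, edgeR adjusted p = 0.000151). PPARA rose there from 19.0 ± 1.4 to 30.2 ± 5.3 CPM (0.67 ± 0.13, edgeR adjusted p = 0.000899). ECI2 also rose there, from 107 ± 3.5 to 140 ± 11.5 CPM (0.39 ± 0.07, edgeR adjusted p = 0.000639). No other list had a median as far below 0 as the 10 genes in either knockdown, which was not tested.

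**Figure D5:**
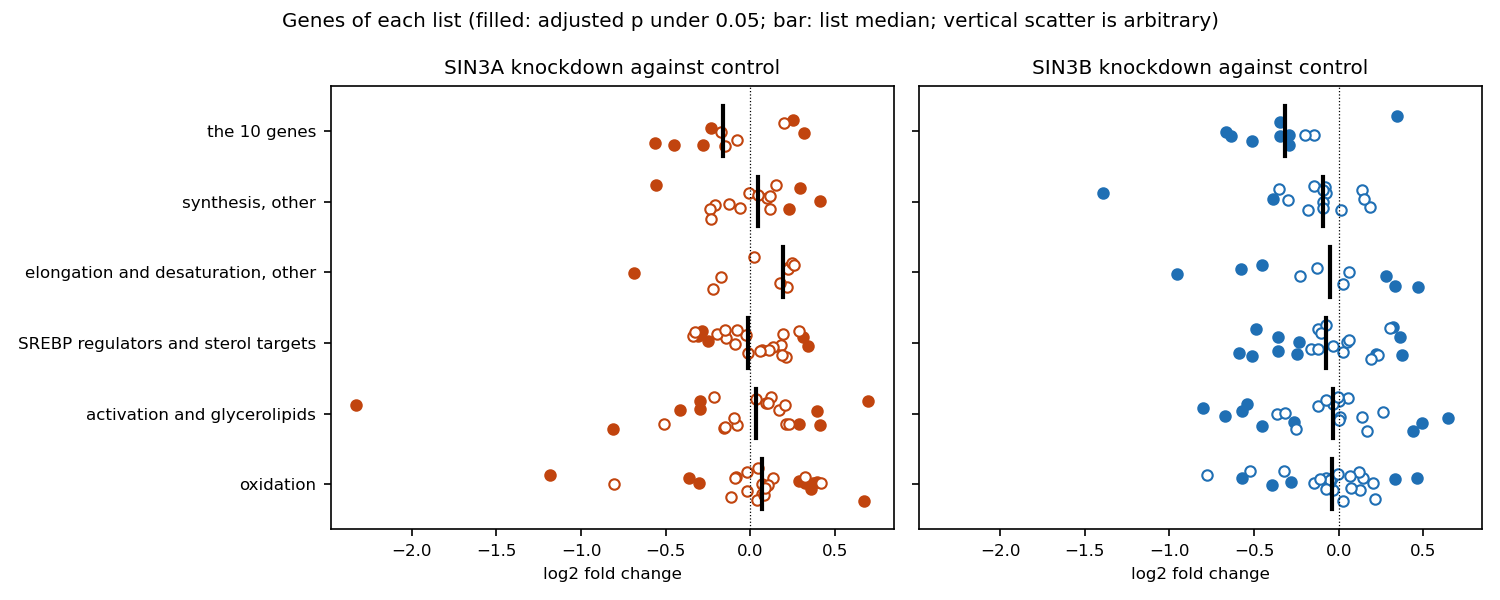
Log2 fold change (horizontal axis) of the tested genes of each list in the SIN3A and the SIN3B knockdown against control, filled where the edgeR adjusted p was under 0.05, with a bar at each list's median. The median of the 10 genes lies at -0.16 and -0.32, and those of the 5 other lists lie between -0.01 and 0.20 in the SIN3A knockdown and between -0.09 and -0.04 in the SIN3B knockdown.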

How the data were processed

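Poly-A RNA of 9 HEK293T libraries was measured. Counts per Ensembl gene were deposited by the authors as raw counts, and an FPKM table by the authors was used for alternatives within a gene only. The submitters' processing notes name Trimmomatic 0.36, HISAT2 2.1.0, HTSeq, DESeq2 1.20.0 and the build GRCh38, and the strand setting of counting is not given in the sources used here. At least 98.0% of nonzero counts in each library are multiples of 4.

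Counts were fitted in edgeR 4.0.16 (R 4.3.3; TMM, filterByExpr with minimum count 10, robust quasi-likelihood F-test) with all 9 libraries in 1 fit with 6 residual degrees of freedom. P-values are two-sided and Benjamini-Hochberg adjusted over the 16686 genes tested, per comparison. All 58734 IDs matched GENCODE 29, which gave exon lengths, 3′ UTRs and overlaps. On simulated data for the SIN3B comparison, 96% of planted 2-fold and 72% of planted 1.5-fold changes were recovered (16312 genes run), with 8.2% of calls false. In the SIN3A and the direct comparison 4.55% and 1.69% of calls were false. Changes as small as most of those described here are below the planted sizes. The simulation changed only 100 genes by each size, gave all groups the same spread and drew no counts in multiples of 4. Its rates may therefore not hold for the real data.

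The members and gene lists were chosen with earlier results of these data known. Beside the 10 genes and a short set of regulators, the rule named from each other list all called genes when 4 or fewer were called, otherwise the 2 largest rises and falls, and the largest direct difference. Some genes that the rule names are withheld for evaluation and are not reported here. Of the other 53 list results it names, the text gives some of the 38 whose call held without any 1 library. The 5 most alike genes were ranked by Pearson r among genes of at least 3 mean log2 CPM. Alternatives were upper-quartile and DESeq2 factors, low-count filters, the replicate block, counts divided by 4, GC and length offsets, fits of 6 libraries, DESeq2 1.42.0, limma 3.58.1 on log2(FPKM + 1) and log2(FPKM + 0.1), and leaving out each library.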

Additional observations from a re-analysis of the deposited data

Results flagged for a closer look

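For 8 of the 10 genes the effect of the siRNA differed between the knockdowns, by the direct test of SIN3A against SIN3B knockdown libraries (quasi-likelihood test of edgeR, p adjusted over every gene tested). Among all genes tested, 14.5% were called higher and 12.6% lower in that comparison. The log2 difference was higher in the SIN3A knockdown for FASN (0.36, from 0.25 to 0.50 when 1 library was left out), ACACA (0.27, from 0.22 to 0.33), ACLY (0.40, from 0.38 to 0.43), ELOVL6 (0.52, from 0.47 to 0.56), FADS1 (0.46, from 0.44 to 0.50) and ACSS2 (0.86, from 0.79 to 0.95). It was lower in the SIN3A knockdown for ELOVL5 (-0.79, from -0.88 to -0.73) and FADS2 (-0.21, from -0.26 to -0.15). The calls of FASN, ACLY, ELOVL5, ELOVL6, FADS1 and ACSS2 held in all 21 alternatives, and those of ACACA and FADS2 did not.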

How the results depend on the processing

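Among all genes tested, 10.8% to 14.5% were called in each direction of a comparison. The 10 genes gave 30 differences, 22 of them called, and 16 of these calls held in all 21 alternatives. Of 630 alternative values, 570 kept direction and side of the threshold, 44 lost the call, 10 gained it and 6 changed sign. The 6 are the direct difference of SREBF1, near 0: -0.019 with upper-quartile factors, -0.092 with GC and length offsets, -0.094 with these and the replicate block, -0.054 and -0.049 without SIN3A replicate 2 and 3, and -0.003 without SIN3B replicate 2 (0.141 without SIN3A replicate 1). With upper-quartile factors 1352 genes rose in the SIN3A knockdown, against 2029.

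Counts of the 10 genes without 1 library ran from 2 to 5 lower in the SIN3A knockdown (2 without control replicate 1 or 3), 6 to 8 lower in the SIN3B knockdown, and 5 to 6 higher and 1 to 2 lower in the direct comparison. That last count was 1 with DESeq2 factors, no filter, a 1 CPM filter, the 6 libraries, limma at either pseudocount and the replicate block. The count lower in the SIN3B knockdown was 9 with upper-quartile factors and with the 6 libraries, and 8 with DESeq2. It was 6 with the GC and length offsets and with limma. Over all genes, leaving out 1 library gave 1321 to 2269 higher and 1189 to 1740 lower in the SIN3A knockdown, 1331 to 2463 and 1307 to 2290 in the SIN3B knockdown, and 1858 to 2605 and 1507 to 2297 in the direct comparison. A fit that leaves out a library has fewer samples.

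In their deviations from the group means, same-numbered libraries of different groups correlated at -0.171 to 0.0674 and differently numbered ones at -0.154 to 0.219. These values cannot show if libraries of the same number were made together. With the replicate number as a block the SREBF1 value in the SIN3A knockdown was -0.285 (edgeR adjusted p = 0.0505) and the direct value of FADS2 -0.215 (edgeR adjusted p = 0.0677), and no other call of the 10 genes changed.

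Of 71 results on other named genes, 43 kept their call in every alternative. None of the values that changed sign was called with TMM on all 9 libraries. SIN3A in the SIN3B knockdown was 0.004 with the 1 CPM filter, 0.013 with GC offsets, with or without the replicate block, and -0.033 to 0.012 without 1 library (0.002 and 0.006 without SIN3A replicate 1 and SIN3B replicate 2). SIN3B in the SIN3A knockdown was -0.059 with upper-quartile factors, -0.003 with counts divided by 4, and -0.056, -0.015 and -0.014 without SIN3A replicate 2, SIN3A replicate 3 and control replicate 3 (0.115 without SIN3A replicate 1). With GC offsets, without and with the replicate block, the SIN3B knockdown gave INSIG2 -0.071 and -0.062 and SCAP 0.011 and 0.013. In the SIN3A knockdown INSIG2 was 0.067, 0.065 and 0.109 without control replicate 1, control replicate 3 and SIN3A replicate 2 (-0.192 without control replicate 2). The direct INSIG1 value was -0.004 to 0.123 without 1 library (SIN3A replicate 1 and 2).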
